A study of Mus musculus with 14 samples.

Results

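The genes Ehd3, Plvap, Emcn, Esam, Icam2, Tmem204, Egfl7, Kdr and Flt1, known for their expression in blood vessel endothelium, were followed across 14 single cells labelled as mesangial cells. These are 9 of 35271 genes in the deposited table, and each was found as 1 row through its Ensembl identifier. They were chosen on the same values that are described here, as endothelial genes that reached an RPKM of 10 in several cells, with Egfl7 and Kdr added for contrast. RPKM is a read count divided by the length of the gene and by the read total of the cell. The description "widespread" fits only some of them. Esam and Flt1 were at 10 or more in 2 cells each, no more than Kdr, so the 9 are called endothelial-associated genes below.

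All 14 cells came from the kidney glomeruli of 1 male mouse of 8 weeks, wild type, of the strain C57BL/6 in the series' design text and spelled C56BL/6 in the strain label. Glomeruli were collected with magnetic beads and dissociated with enzymes, and a Fluidigm C1 instrument separated the cells, lysed each on its own and made the cDNA libraries. The cells form 1 group with 1 animal as the only replicate. No test between groups is therefore possible, and shares of cells carry exact 95% Clopper-Pearson intervals that cover only the sampling of 14 cells. Cells are named by their titles, GL_M_ and a number. Estimated totals ran from 6.60 to 23.8 M reads per cell, and between 1770 and 5277 genes per cell had an RPKM of 1 or more.

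Endothelial cells line the glomerular capillaries and face the mesangial cells without a basement membrane between them. They are recognised by surface receptors for vascular endothelial growth factor (VEGF), by adhesion molecules at their contacts and by proteins of their membrane pores and vesicles. Mesangial cells are contractile, matrix-producing cells of the pericyte kind that hold the capillary loops together. Gata3 and Pdgfrb are known to mark them.

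Mesangial markers were read first, namely Gata3, Serpine2, Ptn, Itga8, Pdgfrb, Agtr1a, Des and Fhl2. Each cell had 6 to 8 of these 8 at 10 or more. Gata3, a zinc finger transcription factor, ran from 2518 to 10706. The markers were listed with earlier results of these data known, so their levels describe the cells and do not check the label. Against the mesangial markers stood 5 genes that define endothelium. Cldn5, a tight junction protein, had the value 0 throughout, and 0 of 14 leaves room for up to 23.2% of cells in which it would be detected. Cdh5, the endothelial cadherin, was at 12.7 in GL_M_30 and listed at 0 in the other 13 cells. Pecam1, an adhesion molecule of endothelium, peaked at 1.87 in GL_M_36, and Tie1, an orphan receptor of the angiopoietin system, reached 17 in GL_M_30 and 2.47 in GL_M_47. Tek, the angiopoietin receptor, differed from these, with 5 cells at 12.9 to 96.7. The 5 defining genes were all below 10 in 9 cells.

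**Figure D1:**
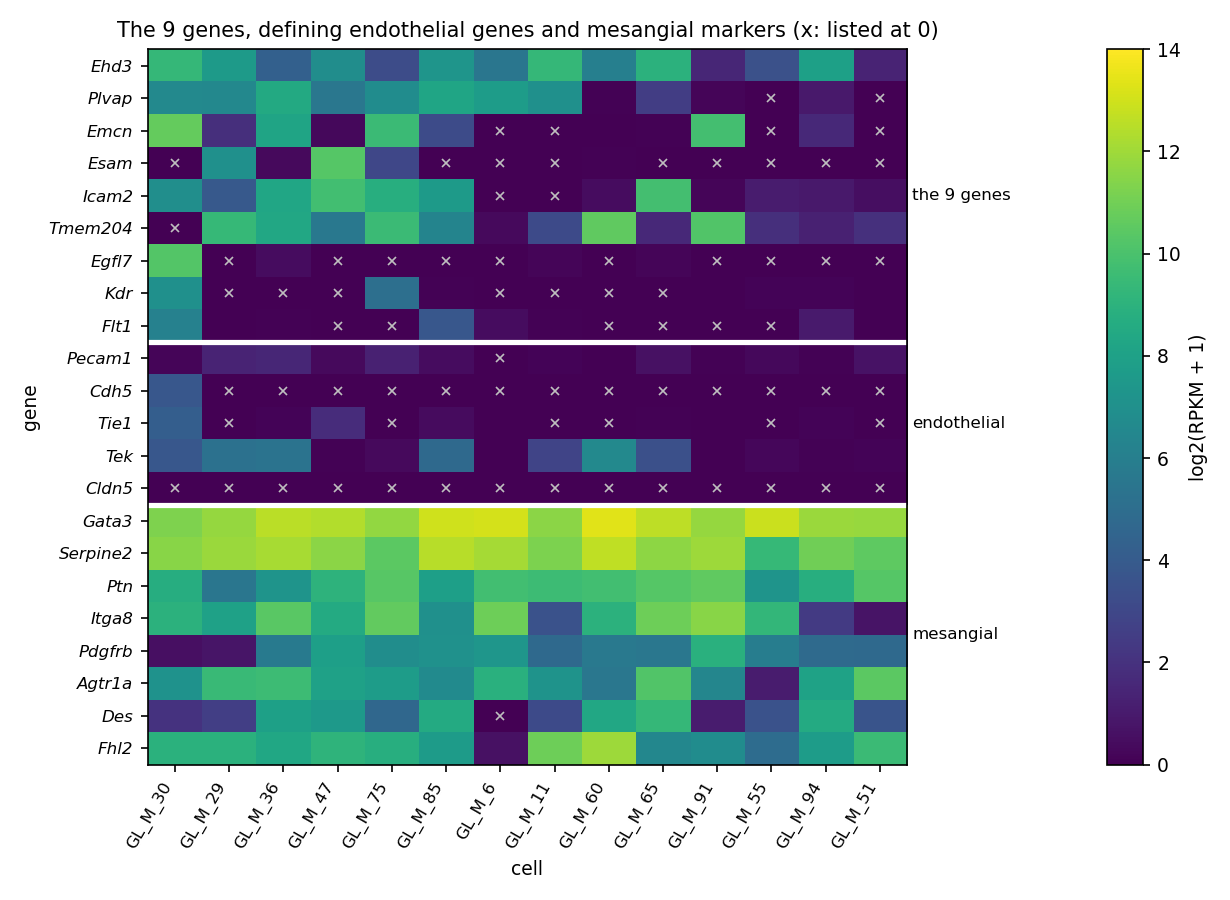
Levels as log2(RPKM + 1) of the 9 endothelial-associated genes, of 5 genes that define endothelium and of 8 mesangial markers in 14 single cells. Rows are genes, columns are cells ordered by how many of the 9 genes were at an RPKM of at least 10, and a cross marks a value listed at 0. Gata3 is bright in every column, Cldn5 is listed at 0 in all of them, and GL_M_30, the first column, has 7 of the 9 genes at 10 or more.

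Ehd3 encodes an ATPase with an EH domain that works in endosomal recycling and in the kidney is known from the glomerular endothelium. It alone of the 9 genes was at 1 or more in all 14 cells, as 1.06% of the 15121 genes above 0 in some cell were. Its lowest value was 1.58 in GL_M_51, its median 91.3 and its highest 640 in GL_M_30, with 639 in GL_M_11 and 513 in GL_M_65. The level as log2(RPKM + 1) was 5.92 ± 2.76 (SD, n = 14 cells of 1 mouse). It was at 10 or more in 11 cells (78.6%, interval 49.2% to 95.3%), and 2.22% of those 15121 genes reached 10 in 11 or more cells. The values spread without a gap around that limit, since GL_M_55 lay just inside at 10.3 and GL_M_75 just outside at 8.37. The high values were not those of GL_M_30 alone. About 108 reads lay behind the lowest value.

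Plvap encodes the protein that forms the diaphragms of endothelial fenestrae and of some vesicles. At 8 or more cells, which 5.45% of the genes above 0 reached, stood only Ehd3 and Plvap among the 9. Plvap was at 10 or more in 8 cells (57.1%, interval 28.9% to 82.3%), where it ran from 46.1 in GL_M_47 to 367 in GL_M_36. In the other 6 cells it was at most 4.89, in GL_M_65, and it was listed at 0 in GL_M_51 and GL_M_55. GL_M_36 was followed by GL_M_85 at 299, GL_M_6 at 210, GL_M_11 at 130 and GL_M_75 at 112, and GL_M_30 had 94.2. The 8 cells lay within a 7.97-fold range, and a 9.41-fold gap separated them from the next lower cell. Among the 5 genes at 10 or more in 4 or more cells, only Emcn had a narrower range over its high cells, 5.69-fold over 4 cells. In GL_M_60 the Plvap value of 0.0417 corresponded to about 2 reads.

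Emcn, endomucin, is a sialomucin on the surface of capillary and venous endothelium. It was at 10 or more in 4 cells (28.6%, interval 8.39% to 58.1%), namely GL_M_30 at 1635, GL_M_91 at 902, GL_M_75 at 733 and GL_M_36 at 287. GL_M_85 was just below the limit at 8.27, GL_M_29 and GL_M_94 were at 2.65 and 2.04, and 4 cells were listed at 0. The 4 high cells were 34.7-fold or more above all the others. GL_M_91, the second highest, had none of the 5 defining endothelial genes at an RPKM of 1 or more and had the highest Pdgfrb of the 14 cells, at 464.

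Tmem204 encodes a claudin-like membrane protein of cell contacts. It was at 10 or more in 7 cells (50%, interval 23.0% to 77.0%), with 1514 in GL_M_60, 1155 in GL_M_91, 733 in GL_M_75 and 674 in GL_M_29. GL_M_36 had 341, GL_M_85 had 79.7 and GL_M_47 had 47.1. It lay between 1 and 10 in 5 further cells, with the highest of these, GL_M_11, at 7.97. Tmem204 was listed at 0 in GL_M_30, the cell in which 7 of the other genes were at 10 or more. Of its 4 highest cells, GL_M_75 had Kdr at 34.0, and in GL_M_60, GL_M_91 and GL_M_29 Kdr, Flt1 and Egfl7 were at most 0.0372.

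Icam2 and Esam encode adhesion molecules of the immunoglobulin superfamily. Icam2, a ligand of the leukocyte integrin LFA-1, was at 10 or more in 7 cells, with 908 in GL_M_65, 876 in GL_M_47, 442 in GL_M_75, 308 in GL_M_36, 199 in GL_M_85, 121 in GL_M_30 and 14.1 in GL_M_29. In the remaining 7 cells it did not exceed 1.12, and 2 of them were listed at 0. Esam, which sits at endothelial tight junctions and on platelets, was at 10 or more in GL_M_47 at 1272 and GL_M_29 at 127 (14.3% of cells, interval 1.78% to 42.8%). It was at 6.86 in GL_M_75 and listed at 0 in 9 cells, GL_M_30 among them. Both Esam cells had Icam2 at 10 or more as well. The single cell GL_M_47 held 90.5% of the Esam RPKM summed over all cells. The 5 platelet and erythroid markers, Pf4, Ppbp, Itga2b, Alas2 and Hba-a1, were below 1 in every cell, with a summed RPKM of at most 0.351.

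Kdr and Flt1 encode the VEGF receptors 2 and 1, and Egfl7 a secreted protein of endothelial cells. Kdr reached 127 in GL_M_30 and 34.0 in GL_M_75 and stayed at or below 0.0869 elsewhere. Flt1 was at 70.6 in GL_M_30 and 13.2 in GL_M_85, followed by 1.02 in GL_M_94. Egfl7 was at 1199 in GL_M_30, and the next cell, GL_M_36, had 0.370. GL_M_30 thus had the highest value of each of the 3 genes, and it held 99.9% of the summed RPKM of Egfl7, 82.7% of that of Flt1 and 78.8% of that of Kdr. Values of a whole gene do not separate the soluble form of Flt1 from the receptor. Egfl7 shares 264 exon bases with the gene model Gm20532 and 73 with Mir126a on its own strand, and 64 with Agpat2 and 58 with Mir126b on the other, and the sources used here do not say how reads in these stretches were assigned. Gm20532 was listed at 0 in every cell.

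**Figure D2:**
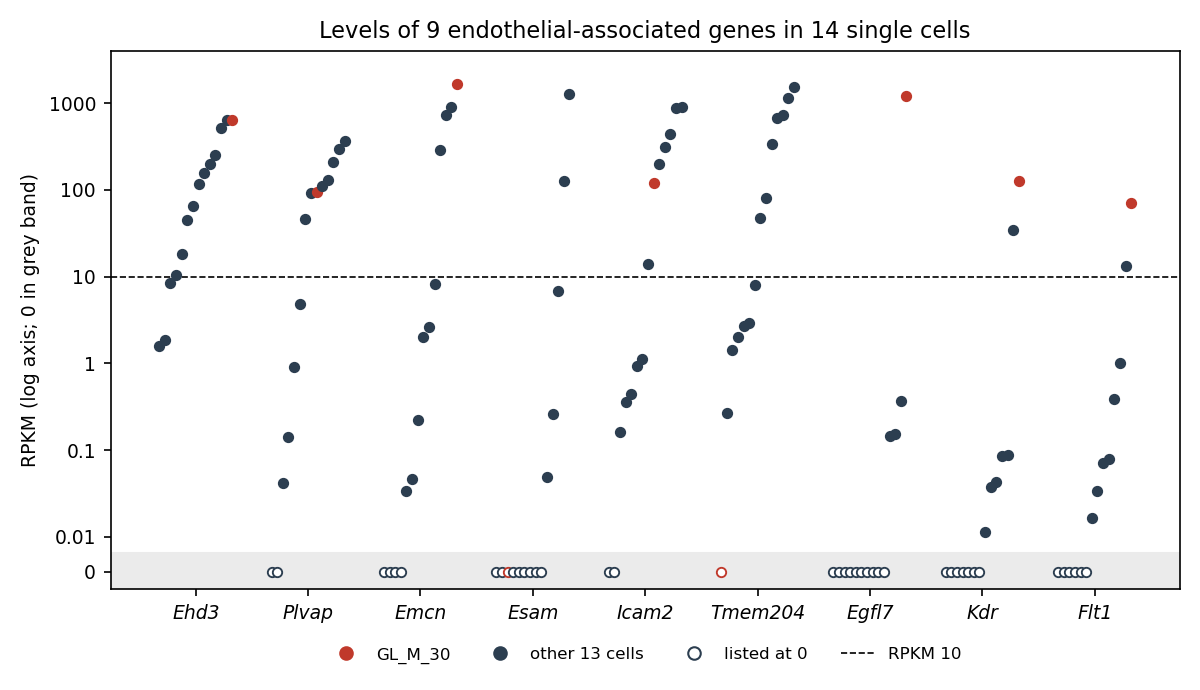
RPKM of the 9 genes in 14 single cells on a log axis, 1 point per cell, with GL_M_30 in red, the other 13 cells in dark blue, values listed at 0 as open points in the grey band and a dashed line at an RPKM of 10. Ehd3 has no value at 0, Icam2 and Plvap have a gap below the dashed line, and the 3 genes on the right are high in GL_M_30 and in at most 1 other cell.

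The 126 values of the 9 genes were spread over a wide range. Of these, 41 (32.5%) were listed at 0, 26 (20.6%) were above 0 and below 1, 15 (11.9%) lay from 1 to below 10, 13 (10.3%) from 10 to below 100 and 31 (24.6%) at 100 or more. Among all 7864 genes that reached 10 in some cell the same classes held 43.3%, 23.5%, 9.60%, 11.6% and 12% of values. Since the 9 genes were chosen for being high in some cells, the comparison is a description. The 44 values at 10 or more rested on an estimated 92 to 51819 reads, with a median of 5552. The 26 values above 0 and below 1 rested on 1 to 14 reads, with a median of 3. These small values were 0.00206% to 0.552% of the level in the gene's highest cell. The labels mention no molecular identifiers, so reads need not be independent molecules, and values this low were not read as expression.

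By number of cells at 10 or more, the order was Ehd3 with 11 cells, Plvap with 8, Icam2 and Tmem204 with 7 each, Emcn with 4, Esam, Kdr and Flt1 with 2 each and Egfl7 with 1. With 14 cells the intervals of neighbours in this order overlap, and even those of Ehd3 (49.2% to 95.3%) and Emcn (8.39% to 58.1%) do. All genes were measured in the same cells, so overlap of separate intervals does not judge a difference between genes. Ehd3 was at 10 or more without Emcn in 9 cells, and Emcn without Ehd3 in 2. Of the 9 genes, 5 were at 10 or more in 4 or more cells, which 16.7% of the 15121 genes above 0 in some cell were, 8 were so in 2 or more cells, against 33.2%, and 9 in 1 or more, against 52.0%. The choice of the genes fixed these counts, and nothing is read from them.

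Within a cell the genes came in different combinations. GL_M_30 had 7 of the 9 at 10 or more, 5 cells (GL_M_29, GL_M_36, GL_M_47, GL_M_75 and GL_M_85) had 5 each, and the remaining 8 had 0 to 2. No cell had 3 or 4. There were 11 distinct combinations, 3 of which were found in more than 1 cell. Ehd3 with Plvap alone was the combination of GL_M_6 and GL_M_11, and Ehd3, Plvap, Esam, Icam2 and Tmem204 that of GL_M_29 and GL_M_47. Ehd3 was the only gene at 10 or more in GL_M_55 and GL_M_94. GL_M_51 had none at 10 or more, with Tmem204 at 2.91 and Ehd3 at 1.58 as its highest values. The 9 genes summed to between 0.000867% of the RPKM total in GL_M_51 and 0.673% in GL_M_30.

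Of the 36 pairs of genes, 31 were at 10 or more together in at least 1 cell, and 6 pairs in 4 or more cells. Ehd3 and Plvap shared 7 cells, while Plvap and Icam2 shared 6, as did Ehd3 and Icam2. Tmem204 shared 5 cells each with Ehd3, Plvap and Icam2. Esam shared no cell with Emcn, Egfl7, Kdr or Flt1, and Tmem204 none with Egfl7. Pearson's r of log2(RPKM + 1) over the 14 cells ran from -0.36 to 0.83 with a median of 0.27, and it was above 0 in 27 of the 36 pairs. The cells share 1 animal and differ in the number of genes detected, so these values are descriptions. The highest r, 0.83 for Egfl7 with Flt1 and 0.79 for Egfl7 with Kdr, rested on GL_M_30, since they were -0.17 and -0.15 without it. Kdr with Flt1 fell likewise, from 0.62 to -0.11. The r of Emcn with Kdr was 0.68, and 0.54 without GL_M_30. For Emcn with Tmem204 it was 0.34 with all cells and 0.64 without GL_M_30, and for Ehd3 with Emcn -0.23 and -0.50.

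Cells with more of the 9 genes at 10 or more tended to have more of the 28 other endothelial genes at that level. Both sets of genes were chosen with earlier results of these data known, so the relation is a description of these cells only. The other genes numbered 14 in GL_M_30 and 2 to 7 in the other 13 cells. Pearson's r between the 2 counts was 0.85 and Spearman's rho 0.86 over 14 cells. It was 0.86 without GL_M_30, and 0.84 to 0.89 without GL_M_30, the cell farthest from the median number of other genes, and any 1 of the 5 cells tied as next farthest. The number of genes detected at 1 or more moved with the count as well, with r = 0.56, rho = 0.57 r = 0.52 without GL_M_36 and GL_M_47 and r = 0.64 without GL_M_30. GL_M_36 and GL_M_47 had 5277 and 4842 such genes, but GL_M_30 with 3082 and GL_M_29 with 2524 were within the range of the other cells. By genes above 0, GL_M_30 was among the highest, with 8331. GL_M_36 had 8577, GL_M_47 had 7754 and the next cell, GL_M_75, had 6383. The part of gene detection in the counts of endothelial genes was not tested. The read total gave r = -0.16 and rho = 0.09, r = 0.29 without GL_M_51 and GL_M_60 and r = -0.22 without GL_M_30. The mean log2 level of the 8 mesangial markers gave r = 0.17 and rho = 0.18, r = 0.12 without GL_M_55 and GL_M_65 and r = 0.40 without GL_M_30.

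**Figure D3:**
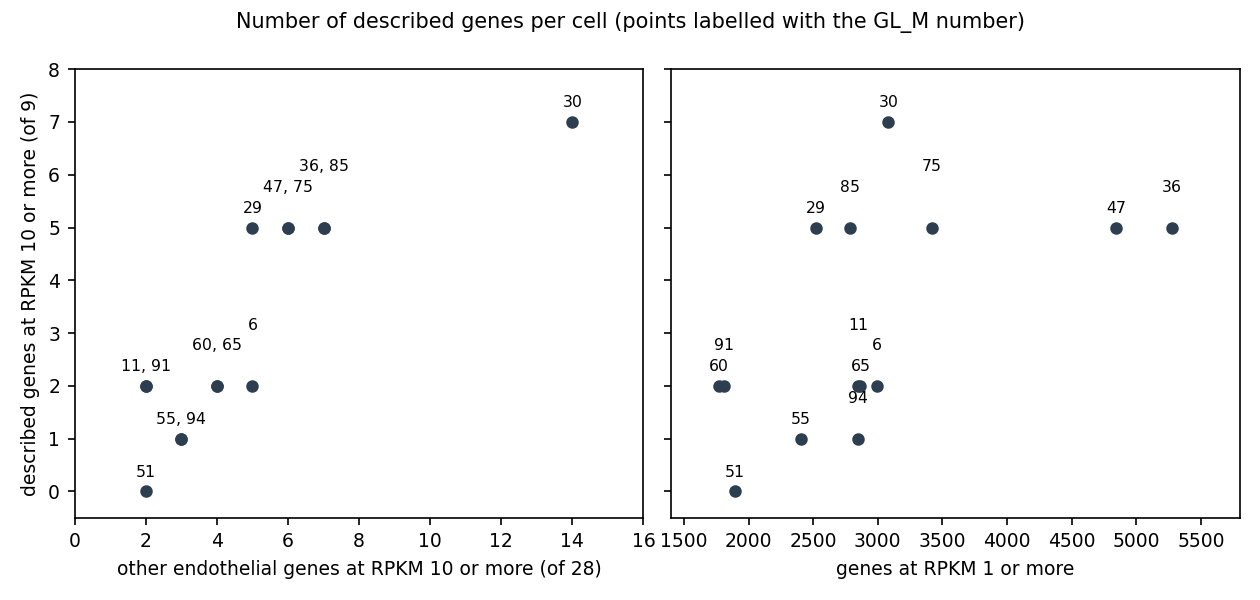
How many of the 9 genes reached an RPKM of 10 in each cell against the number of 28 other endothelial genes at that level (left) and against the number of all genes with an RPKM of 1 or more (right), with each point labelled by the number in the cell's title. GL_M_30 stands apart on the left at 7 and 14 genes but not on the right, in its number of genes at 1 or more. No cell had 3 or 4 of the 9 genes.

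GL_M_30 had transcripts from both sets of markers. Its summed RPKM of 7 endothelial markers was 1369, but Egfl7 at 1199 and Kdr at 127, both among the 9 genes, made up most of it. Over the 5 defining endothelial genes alone it summed to 42.7, with Tie1 at 17, Tek at 12.9 and Cdh5 at 12.7. The sums of GL_M_36 at 41.4, GL_M_29 at 38.2 and GL_M_60 at 96.7 were nearly all Tek. In every other cell at most 1 of the 5 genes was at 10 or more, against 3 in GL_M_30. Its sum over the 8 mesangial markers was 6981, the lowest of a range that reached 23018 in GL_M_60. In GL_M_30 Gata3 was at 2518, Serpine2 at 2903, Itga8 at 509 and Agtr1a at 142, but Pdgfrb was at 0.493 and Des at 3.09. The part of RNA from an endothelial cell in the values of GL_M_30 was not tested. Pdgfrb was also below 1 in GL_M_29, at 0.759, a cell with 5 of the 9 genes at 10 or more and Tek at 36.5. Without GL_M_30, 37 of the 44 values at 10 or more were left, in 12 of 13 cells. Sums of other cell types were also high in single cells. The 6 podocyte markers, Podxl among them, which is also on the endothelial list, summed to 0.291 to 1756 with a median of 70 and were highest in GL_M_55, where Ehd3 at 10.3 was the only one of the 9 genes at 10 or more. The 5 macrophage and leukocyte markers reached 923 in GL_M_85, all of it Fcer1g, with Ptprc, Cd68, Adgre1 and Lyz2 at 0 there, and GL_M_85 had 5 of the 9 genes. The part of podocyte or leukocyte RNA in the results was not tested. The 4 smooth muscle and renin cell markers summed to at most 1.77, and the 3 proximal tubule markers summed to at most 0.0232.

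The other endothelial genes were likewise uneven. Of the 28 genes, 8 (28.6%) were at 10 or more in 3 or more cells, while 23.0% of all genes above 0 in some cell were, and 5 were listed at 0 in every cell. Eng, a coreceptor for transforming growth factor beta, and Cd34, a sialomucin, were each at 10 or more in 11 cells, with medians of 108 and 140. Lpl, lipoprotein lipase, was so in 7 cells with up to 846 in GL_M_55, Ecscr, a surface regulator of endothelial migration, in 4 with up to 324 in GL_M_36, and Clec14a, a C-type lectin, in 3 with 237 in GL_M_30. A further 6 genes, Cdh5, Tie1, Ptprb, Mmrn2, Gpihbp1 and Thbd, named after their values were seen, were at 10 or more in GL_M_30 and in no other cell. These 6 resemble Egfl7 in that respect, whereas Eng, Cd34 and Tek resemble Ehd3 and Plvap in being high in several cells.

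ETS transcription factors are known to act at many endothelial promoters. Ets1 was at 10 or more in 13 cells, from 11.5 in GL_M_55 to 2476 in GL_M_91, and at 0.863 in GL_M_51. No relation of ETS factor levels to the 9 genes was tested. Fli1 was at 10 or more in 6 cells, namely GL_M_47 at 299, GL_M_6 at 288, GL_M_36 at 176, GL_M_75 at 139, GL_M_30 at 84.4 and GL_M_85 at 49.3. Erg was at 1.99 in GL_M_30 and listed at 0 elsewhere, and Sox18, also an endothelial factor, was at 0 throughout. With these levels in view, the 250 bases upstream of the RefSeq starts were searched on both strands. The letters sought were AGGAAG, 1 form of the ETS motif, and AGATAA, 1 form of the GATA motif. Other forms of either motif were not searched. RefSeq's table (GRCm38.p6) held 7 starts for 5 of the genes, Ehd3, Emcn, Egfl7, Kdr and Flt1, and none for Plvap, Esam, Icam2 and Tmem204. The letters AGGAAG were in 4 of the 7 windows, 3 of which are starts of Egfl7, and in 29.5% of all 32851 windows of that length. The exact letters AGATAA were in 0 of the 7 and in 9.99% of all windows. Windows of 1 gene are not independent and the 7 cover only 5 of the 9 genes, so no difference is read from these shares. Of the 7, 3 windows are printed to set the gene detected in every cell beside a gene high in 4 cells and a gene high in 2, with ETS matches in capitals. The Ehd3 window lies downstream of the first GENCODE start of that gene. They are chr17:73804591-73804840 (plus strand), chr3:137340828-137341077 (plus) and chr5:147726012-147726261 (minus).
Ehd3: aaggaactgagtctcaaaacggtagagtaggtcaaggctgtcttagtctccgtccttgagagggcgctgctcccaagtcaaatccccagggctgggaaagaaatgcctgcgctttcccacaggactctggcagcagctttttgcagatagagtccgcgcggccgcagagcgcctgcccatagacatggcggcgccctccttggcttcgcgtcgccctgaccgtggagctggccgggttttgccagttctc
Emcn: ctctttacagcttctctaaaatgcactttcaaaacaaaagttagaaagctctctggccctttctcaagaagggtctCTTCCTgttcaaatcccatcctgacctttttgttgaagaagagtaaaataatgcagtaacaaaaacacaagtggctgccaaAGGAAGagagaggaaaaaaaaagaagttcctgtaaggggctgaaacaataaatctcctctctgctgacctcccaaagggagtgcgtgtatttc
Flt1: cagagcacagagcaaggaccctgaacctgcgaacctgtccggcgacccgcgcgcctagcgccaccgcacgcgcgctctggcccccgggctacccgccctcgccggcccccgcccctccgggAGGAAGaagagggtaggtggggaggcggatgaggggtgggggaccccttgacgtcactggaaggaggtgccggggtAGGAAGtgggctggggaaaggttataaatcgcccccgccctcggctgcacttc
The Emcn and Flt1 windows each hold 2 matches to AGGAAG and the Ehd3 window holds 0. Egfl7 has 3 annotated starts, of which 2 hold a match, and the Kdr window holds 0. A match describes the letters of the window only, and a window without a match can hold other forms of the motif.

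Genes of the same families and pathways were read next. Of the VEGF ligands, Vegfa and Vegfb were below 1 in every cell, and Vegfc reached 73.8 in GL_M_47 alone. Vegfd, a ligand of Flt4 known also as Figf, was at 10 or more in 4 cells, with 458 in GL_M_6, 289 in GL_M_36, 204 in GL_M_85 and 100 in GL_M_51. Pgf, placental growth factor, a ligand of Flt1, was at 380 in GL_M_75 and 232 in GL_M_91. Vegfd and Pgf were listed at 0 in GL_M_30. Among the receptors, Flt4 peaked at 0.0160. Nrp1, the neuropilin that serves VEGF and semaphorins as a coreceptor, was at 10 or more in all 14 cells (interval 76.8% to 100%), from 269 in GL_M_47 to 1276 in GL_M_55 with a median of 793. Nrp2 reached 8.11. The coreceptor Nrp1 was high in every cell and the tyrosine kinase receptors Kdr and Flt1 in 2 cells each and Flt4 in none.

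The EHD relatives of Ehd3 were present in part. Ehd2, which acts at caveolae, and Ehd4, which acts in early endosomes, were at 10 or more in 7 cells each, with up to 277 in GL_M_65 and 766 in GL_M_85, and Ehd1 peaked at 0.0613. In the 3 cells with Ehd3 below 10, Ehd4 was at 453 in GL_M_51, 635 in GL_M_75 and 0.485 in GL_M_91, and Ehd2 was at 0.269, 0.166 and 179 in the same cells. The highest Ehd4 and Ehd2 cells, GL_M_85 and GL_M_65, had Ehd3 at 155 and 513. Of the stretches of 50 bases in Ehd3 transcripts, 0.0307% were found in another gene's transcripts. For Plvap, Emcn, Esam, Icam2, Tmem204 and Kdr it was 0%, for Flt1 0.112% and for Egfl7 4.94%.

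Of 5 caveola genes, Cav2 was at 10 or more in 8 cells, with 2168 in GL_M_55 and 1007 in GL_M_30. Its partner Cav1, named after its values were seen, was so in GL_M_30 at 578 and GL_M_47 at 285 and at most 0.141 elsewhere. Cavin1, a coat protein of caveolae, was at 10 or more in GL_M_85 at 37.9, GL_M_47 at 34.4 and GL_M_65 at 20.6. Among 7 junction genes, Jam3 was at 10 or more in 6 cells with up to 852 in GL_M_75, F11r (JAM-A) in 4 with 1676 in GL_M_6, and Tjp1 (ZO-1) in 5 with 161 in GL_M_30. Jam2 was listed at 0 in all 14 cells. Of the genes set beside Icam2, Icam1, Icam4, Icam5 and the LFA-1 chains Itgal and Itgb2 were listed at 0 in every cell. Vcam1, a ligand of another leukocyte integrin, was at 237 in GL_M_51, 154 in GL_M_36 and 80.7 in GL_M_94. Icam2 was thus the only one of the 4 Icam genes above 0 in any cell.

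**Figure D4:**
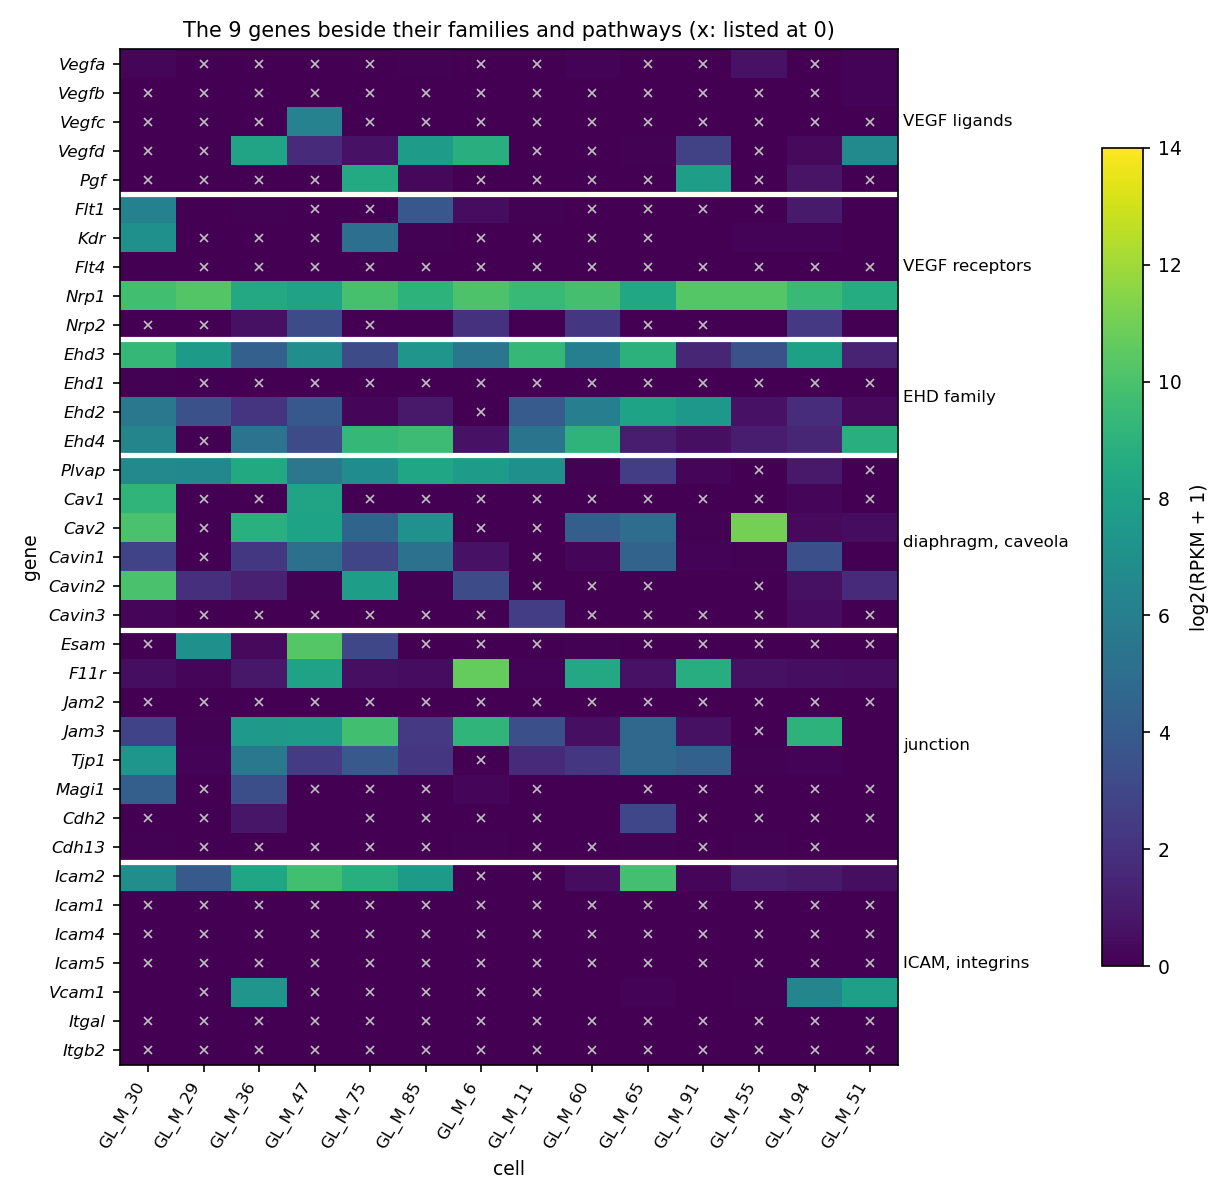
Levels as log2(RPKM + 1) of VEGF ligands and receptors and of genes related to Ehd3, Plvap, Esam and Icam2 in 14 single cells, with columns ordered as in the map of markers and a cross for values listed at 0. Nrp1 is high in every column, Vegfa and Vegfb are below 1 in all of them, and the rows of Icam1, Icam4, Icam5, Itgal and Itgb2 are listed at 0 throughout.

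For the 5 genes at 10 or more in 4 or more cells, the 3 most similar genes were found by Pearson's r of log2(RPKM + 1) over 14 cells, among the 4322 genes that reached 1 in 4 or more cells. They included Gstm2 (0.85) and Rps3a1 (0.82) for Ehd3, and were Il2rg (0.94), Pdia3 (0.89) and Gm14565 (0.89) for Plvap. For Emcn they were Emid1 (0.89), Gimap6 (0.88) and Msrb3 (0.85). Icam2 was followed by Cstb (0.90), Vwf (0.89) and Prkg1 (0.86), and Tmem204 by Ptma (0.87), Ptger4 (0.85) and Gm12504 (0.78). None of these 15 genes is among the 9. Such values are usual in 14 cells, as the highest r of a gene with any other had a median of 0.90 over the 4322 genes and the third highest of 0.85. Il2rg, the common cytokine receptor chain, was at 10 or more in 9 cells, among them all 8 with Plvap at 10 or more, and r was 0.92 without GL_M_51 and GL_M_55. Vwf, von Willebrand factor and the only 1 of the 15 on the list of 28 other endothelial genes, did not exceed 7.93 in any cell. When the 2 cells farthest from each gene's median were left out, 5 of the 15 genes were named again.

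On GRCm38 with GENCODE M21, Ehd3 (ENSMUSG00000024065) lies on chromosome 17 from 73804134 to 73832094 on the plus strand and Tmem204 (ENSMUSG00000024168) on chromosome 17 from 25057702 to 25083591, minus. Plvap (ENSMUSG00000034845) is on chromosome 8 from 71497765 to 71511752, minus, Emcn (ENSMUSG00000054690) on chromosome 3 from 137341067 to 137432185, plus, and Esam (ENSMUSG00000001946) on chromosome 9 from 37528078 to 37538319, plus. Icam2 (ENSMUSG00000001029) is on chromosome 11 from 106377656 to 106388075, minus, and Egfl7 (ENSMUSG00000026921) on chromosome 2 from 26580014 to 26593120, plus. Kdr (ENSMUSG00000062960) is on chromosome 5 from 75932827 to 75978458 and Flt1 (ENSMUSG00000029648) on chromosome 5 from 147561604 to 147726011, both minus. All 9 code for proteins, and 1 value stands for each gene as a unit.

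Levels of different genes depend on the gene length behind the RPKM. For genes with 2 or more transcripts, values below 10 reads came out whole, within 0.02 reads, in a median of 55.8% of cases per cell when the mean length of the gene's transcripts was used, against 4.83% with the exon union and 12.4% with the longest transcript. For Egfl7 with 19 annotated transcripts the steps of the values gave a length of 806 bases, against an exon union of 3581 bases, and for Esam 862 against 2867. On the exon union Egfl7 would be 4.44-fold lower, Flt1 4.24-fold, Esam 3.33-fold, Icam2 2.70-fold, Emcn 2.17-fold, Kdr 1.99-fold, Ehd3 1.82-fold and Tmem204 1.73-fold lower, and Plvap 0.986-fold. Comparisons of 1 gene between cells are not touched by this length. With exon union lengths 41 of the 126 values were at 10 or more, in place of 44.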

How the data were processed

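The deposited table holds RPKM values per gene for 14 single cells, made by the authors. Per the submitters' processing notes, TopHat2 2.0.12, HTSeq 0.6.1 and mm10 were used. Nothing in the sources used here gives the annotation release, how reads with several places were handled, or which cells were filtered out. Of 35271 genes, 34488 matched a symbol by Ensembl identifier. The 9 genes and the gene lists were chosen with earlier results of these data known.

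Read totals were recovered from the steps of RPKM values at genes with 1 transcript in GENCODE M21. Values below 50 reads came out whole within 0.02 reads in 85.0% to 89.8% of cases per cell. On simulated reads all 14 totals came back within 0.5 percent. At these depths 3 reads on a gene of 1 kb equal an RPKM of 0.126 to 0.455, a floor for counting error only. Reads behind a value take the smallest common step of a gene's low values as 1 read, or for Ehd3 the mean transcript length.

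A gene was read as high at an RPKM of at least 10. Log2 levels have a pseudocount of 1. With 1 animal no p-value was computed. Named were the 9 genes, listed genes at 10 or more in 3 or more cells, 5 defining endothelial genes and the 3 genes most like each of the wider members. Of these similar genes, 1 is not reported here. Python 3.11.15, NumPy 2.4.6, pandas 2.3.3 and SciPy 1.17.1 were used.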

Additional observations from a re-analysis of the deposited data

How the results depend on the processing

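The results are descriptions of 14 cells of 1 mouse, and that number limits their precision. Depth limits the values below 1, which rest on 1 to 14 reads. The 44 values at an RPKM of at least 10 became 48 at a limit of 5, 40 at a limit of 20, 59 at a limit of 1, 48 with each cell rescaled to the same sum, 37 without GL_M_30 and 41 with exon union lengths, the last an alternative added after the data were seen. The median number of the 9 genes per cell was 2 at a limit of 10 and moved to 4 at a limit of 1. The number of pairs of genes sharing 4 or more cells was 6, and it was 10 both at a limit of 5 and with rescaled cells. Of the 15 genes named as most similar, 11 were named again with a pseudocount of 0.1, 14 with a filter of above 0 in 4 or more cells and 5 without the 2 cells farthest from each gene's median. Of 54 recomputed cell counts of single genes, 47 stayed within 1.5 times. The exceptions were Emcn and Tmem204 at a limit of 1 (7 and 12 cells), Flt1 at a limit of 20 or on the exon union (1 cell), and Egfl7, Kdr and Flt1 without GL_M_30 (0, 1 and 1 cells). No paired analysis was possible because all cells form 1 group.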
